A study of Drosophila melanogaster with 8 samples.

Results

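The primary piRNA biogenesis genes of Drosophila melanogaster are described here in ovaries of a piwi mutant and of an RnpS1 knockdown, beside their controls. They are 10 genes, taken by their FlyBase symbols from the 15682 genes of the count tables: zuc, Gasz, mino, papi, armi, vret, fs(1)Yb, SoYb, BoYb and shu. All 10 passed the filter on low counts that left 10434 genes for testing. The 8 libraries are whole ovaries of adults aged 4 to 6 days, in 4 groups of 2. The piwi mutant carried the alleles piwi1/piwi2, and its control carried the germline driver nos-GAL4-VP16, a driver that the mutant's label does not name. In the RnpS1 knockdown, tj-GAL4 drove a double-stranded RNA against RnpS1 in follicle cells and nos-GAL4-VP16 drove a short hairpin RNA against it in the germline. The RnpS1 control carried both drivers without the interfering RNAs. Whether replicate libraries stem from different animals is not stated in the labels. The p-values therefore reflect the spread among these libraries alone, and it may be technical.

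Piwi-interacting RNAs (piRNAs) are small RNAs that guide Piwi-clade Argonaute proteins to transposon transcripts. In primary biogenesis, long single-stranded precursors leave the nucleus, are gathered in perinuclear granules and are cut at the mitochondrial surface, and the products are loaded onto Piwi. Piwi without a piRNA does not enter the nucleus, so these genes act upstream of nuclear transposon silencing. Follicle cells rely on this route alone, whereas germ cells also amplify piRNAs by the ping-pong cycle. RnpS1 is an accessory subunit of the exon junction complex, which marks spliced transcripts.

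The libraries held between 37426999 and 86692865 gene counts. The members are covered by 776 to 34346 counts per library, except fs(1)Yb with 113 to 451. Levels are in CPM, read counts scaled to the same total of gene counts in every library, and are given for each library. Log2 fold changes come from edgeR's quasi-likelihood fit of all 8 libraries, with a standard error (SE), a 95% interval and a Benjamini-Hochberg adjusted p over all tested genes, called at 0.05. The fit scales libraries by TMM factors of 0.943 to 1.06, which set the median of all genes near 0. With library totals alone that median was 0.17 in the piwi comparison and 0.12 in the RnpS1 comparison. A ratio of CPM can therefore be higher than the fitted fold change, and differ from it in sign. RnpS1 itself had 8.75 and 3.78 CPM in the knockdown libraries, against 45.0 and 39.6 CPM in their controls, and fell (log2 fold change −2.88, SE 0.366, adjusted p = 0.0207). Leaving out either of its control libraries, which leaves 1 library in that group, ended that call. The log2 fold change was then −2.80 without replicate 1 and −2.97 without replicate 2. Fitting these 2 groups by themselves also ended the call (−2.87, adjusted p = 0.117). The mutated gene, piwi, had 202 and 193 CPM in the mutant against 316 and 312 CPM in its control. The 9 germline markers and the 9 markers of the ovarian soma that could be matched were present in every group.

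Per length, the genes fell into an order that changed little between groups. The helicase gene armi led in every group, at 79.2 to 96.7 CPM per kb of exon on average, above 90.8% to 92.8% of tested genes with a gene model. The group means of mino, shu, Gasz and vret lay between 31.9 and 64.2 CPM per kb. Those of papi, SoYb, BoYb and zuc lay between 19.0 and 38.8 CPM per kb. The last, fs(1)Yb, stood at 0.919 to 1.61 CPM per kb, far below every other member in all 8 libraries. Its product Yb is the core of the Yb body of ovarian somatic cells. In bulk ovary RNA, fewer cells of a type and less RNA per cell cannot be told apart.

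**Figure D1:**
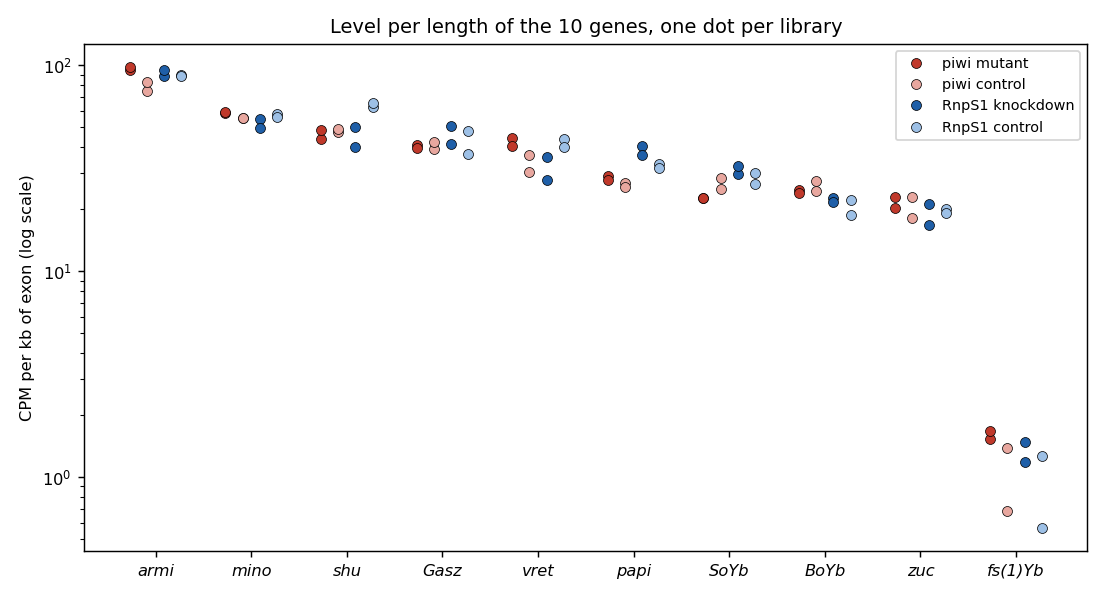
Level per length of the 10 genes: CPM per kb of exon on a log axis, genes along the horizontal axis from highest to lowest mean, 1 dot per library and a colour per group. The gene armi stands highest in every group and fs(1)Yb lowest, with group means of 0.919 to 1.61 CPM per kb.

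Some neighbours in this order could not be separated. In the piwi mutant the libraries of shu and vret overlapped, as did those of vret and Gasz and those of SoYb and zuc. In the piwi control, SoYb and papi overlapped, and papi and BoYb. In the RnpS1 knockdown the run from mino through Gasz and shu to papi overlapped pair by pair, and so did vret and SoYb. In the RnpS1 control, Gasz and vret overlapped, and BoYb and zuc. The gene shu ranked second in the RnpS1 control, ahead of mino, whereas mino ranked second in the other groups. In the knockdown papi stood above vret, the reverse of the other groups.

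In the piwi mutant none of the 10 biogenesis genes passed the test, against 11.4% of all tested genes. At an unadjusted p under 0.05 the count was 1 of 10 (32.4% of all genes), and DESeq2 called 1 of 10, SoYb (23.7% of all genes). Of the 10, 3 had positive and 7 negative log2 fold changes, with a median of −0.07 beside 0.01 over all genes. With library totals alone the members split into 6 positive and 4 negative. The 95% interval lay within a 2-fold change either way for 9 of 10, fs(1)Yb being the exception, beside 54.4% of all genes. Those 9 had SEs of 0.0857 to 0.184, below the median of 0.207 over all genes. Their SEs lay below that median in every comparison, so these shares are not matched for SE.

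The products of zuc, Gasz, mino and papi work at the mitochondrial surface. Zucchini is the nuclease of the phospholipase D family that cuts piRNA precursors, and zuc had 26.5 and 23.3 CPM in the mutant against 20.7 and 26.3 CPM in the control. Gasz, an ankyrin-repeat protein of the outer membrane that holds Armitage there, had 77.9 and 76.1 CPM in the mutant against 75.0 and 81.1 CPM in the control. For both genes the libraries of the groups overlapped. The mitochondrial acyltransferase gene mino had 230.0 and 234 CPM in the mutant against 218 and 218 CPM in the control. The Tudor-KH gene papi, which acts in trimming piRNA ends, had 78.5 and 74.6 CPM in the mutant against 72.2 and 69.2 CPM in the control. Both stood higher in CPM in the mutant libraries, but their fitted values were −0.07 (SE 0.0892, adjusted p = 0.635) and −0.04 (SE 0.0857, adjusted p = 0.755), and with library totals alone 0.09 and 0.12.

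Transcripts for the proteins of cytoplasmic granules followed. The helicase gene armi had 397 and 409 CPM in the mutant against 314 and 345 CPM in the control (log2 fold change 0.13, SE 0.0976, adjusted p = 0.389). The Tudor gene vret, whose product works with Armitage and Yb, had 103 and 94.9 CPM in the mutant against 71.0 and 85.0 CPM in the control (0.19, SE 0.143, adjusted p = 0.399). Both stood higher without overlap in CPM and also after TMM scaling. SoYb, a Yb-related Tudor gene that is expressed in both soma and germline, had 112 and 112 CPM in the mutant against 123 and 139 CPM in the control. Its libraries did not overlap, and it had the lowest adjusted p among the members in this comparison (−0.39, SE 0.110, interval −0.65 to −0.13, adjusted p = 0.0622). DESeq2 called it (−0.37, adjusted p = 0.0125), and over all alternatives its adjusted p ran from 0.0125 to 0.283. Its germline relative BoYb had 88.7 and 85.4 CPM in the mutant against 86.9 and 97.7 CPM in the control (−0.24, SE 0.106, adjusted p = 0.163).

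The somatic gene fs(1)Yb had 5.38 and 5.87 CPM in the mutant against 4.86 and 2.39 CPM in the control (0.47, SE 0.527, interval −0.77 to 1.72, adjusted p = 0.567). The control libraries differed from each other by more than counting error, whose exact 95% Poisson intervals were 4.18 to 5.62 and 1.97 to 2.87 CPM. Without control replicate 2 the fold change was 0.05 and without control replicate 1 it was 1.10. The follicle cell gene tj had 25.2 and 30.5 CPM in the mutant against 72.2 and 39.5 CPM in the control (−1.16, SE 0.561, adjusted p = 0.199). It is 1 of 9 tested markers of the ovarian soma, of which 4 had positive and 5 negative values, with a median of −0.008. Finally the cochaperone gene shu, whose FKBP-type product is needed to load piRNAs onto Piwi proteins, had 74.5 and 82.4 CPM in the mutant against 80.3 and 82.8 CPM in the control (−0.21, SE 0.127, adjusted p = 0.283).

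Counted by libraries that do not overlap in CPM, 5 of 10 members stood higher in the mutant (armi, vret, mino, papi and fs(1)Yb) and 1 lower (SoYb), beside 45.6% and 18.5% of all genes. After TMM scaling, 2 were higher and 5 lower, beside 33.7% and 32.5%. Marker lists differed in the same comparison, in which 11.4% of all tested genes passed. The summed level of 9 germline markers was 4336 and 4560 CPM in the mutant against 5572 and 5492 CPM in the control, and 3 of them (osk, egl and exu) fell. The summed level of 11 eggshell genes of late follicle cells was 154 and 1155 CPM in the mutant against 7987 and 6587 CPM in the control, and 1 of them (Vm32E) fell. Fat body and haemocyte markers summed to 601 and 1455 CPM in the mutant against 87.8 and 60.1 CPM in the control, and 6 of 10 rose. The 9 muscle markers summed to 1445 and 2695 CPM in the mutant against 472 and 164 CPM in the control, and none passed. The 9 markers of the ovarian soma summed to 208 and 221 CPM in the mutant against 219 and 132 CPM in the control, and 1 of them (bab2) rose. Each of these marker calls was lost without any 1 library of the mutant or its control, except that apolpp kept its call without mutant replicate 1. The call of exu was lost with any library left out. No marker was at 0 in any group. By sign, all 9 germline values (median −0.29) and all 11 eggshell values (median −3.61) were negative in the mutant. All 10 fat body and haemocyte values (median 4.75) and all 9 muscle values (median 2.64) were positive, and only the ovarian soma list was mixed. The part of these shifts in the members' values was not tested.

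**Figure D2:**
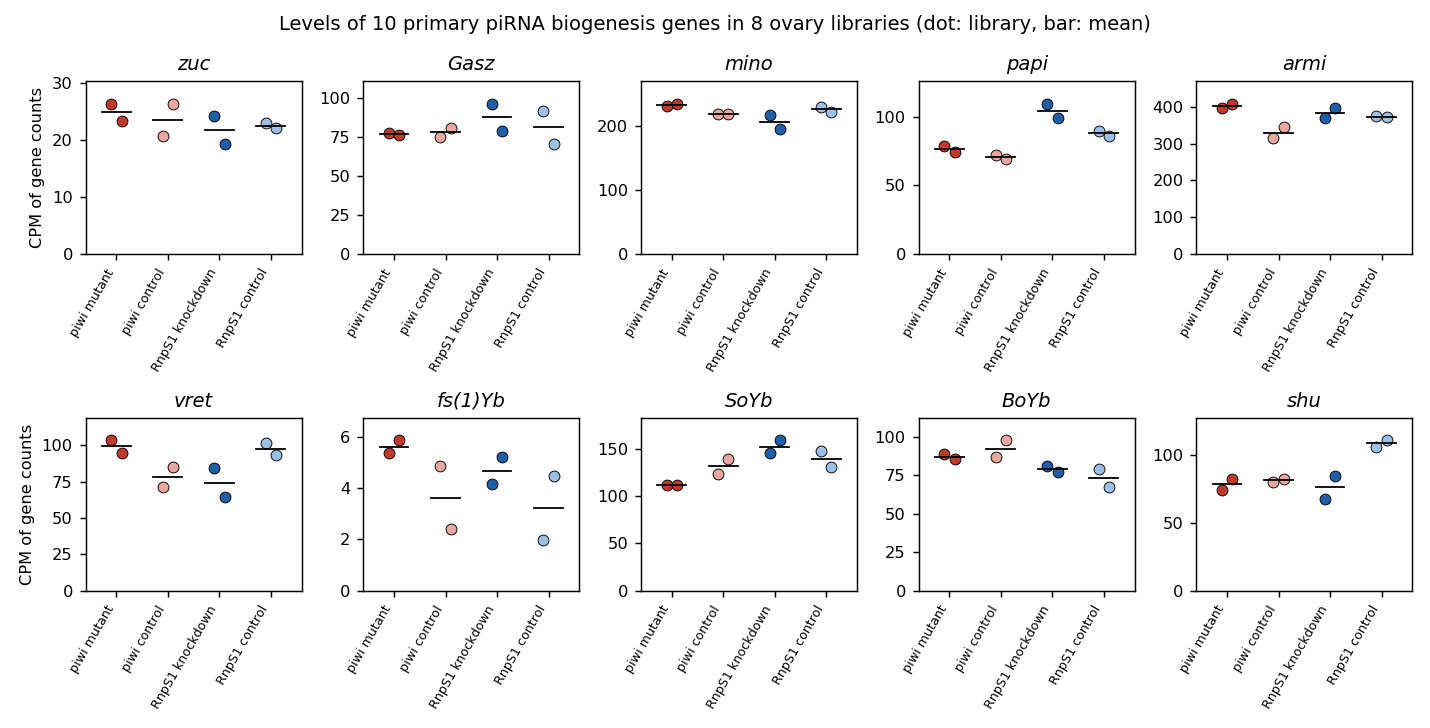
Levels of the 10 genes in CPM of gene counts, 1 panel per gene on a linear axis from 0, with a dot per library and a bar at the mean of the 2 libraries of each group. The SoYb dots of the piwi mutant, at 112 and 112 CPM, lie below those of its control, and the shu dots of the RnpS1 knockdown, at 68.0 and 84.6 CPM, lie below those of theirs.

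In the RnpS1 knockdown none of the 10 genes passed either, against 1.62% of all tested genes. At an unadjusted p under 0.05 there were 3 of 10 (18.2% of all genes), shu, vret and mino, all with negative values. DESeq2 called these 3 genes (9.59% of all genes). The members' median was −0.04 beside 0.01 over all genes, with 3 positive and 7 negative values, or 6 positive and 4 negative with library totals alone. The interval lay within 2-fold for 9 of 10, again all but fs(1)Yb, beside 56.2% of all genes. By comparison, piwi had 189 and 156 CPM in the knockdown against 414 and 337 CPM in the control and fell (−1.24, SE 0.134, interval −1.56 to −0.92, adjusted p = 0.0149). That call was lost without RnpS1 control replicate 1 (log2 fold change −1.10) and in a fit of the knockdown and its control alone (−1.24, adjusted p = 0.116). A count summed over a gene does not tell whether any piwi intron was retained.

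The cochaperone gene shu had the lowest value of the 10. It had 68.0 and 84.6 CPM in the knockdown against 106 and 111 CPM in the control (−0.62, SE 0.127, interval −0.92 to −0.32, adjusted p = 0.0673). The groups did not overlap, yet the knockdown libraries spanned the level of the piwi control (80.3 and 82.8 CPM), and it was the RnpS1 control that stood above all other libraries. The gene passed without knockdown replicate 2 (−0.81, adjusted p = 0.0419), with no filter on low counts (−0.65, adjusted p = 0.0482) and in DESeq2 (−0.63, adjusted p = 0.00160), and over all alternatives its adjusted p ran from 0.00160 to 0.221.

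The granule gene vret had 84.0 and 64.5 CPM in the knockdown against 102 and 93.3 CPM in the control (−0.51, SE 0.143, interval −0.85 to −0.17, adjusted p = 0.132). Its DESeq2 adjusted p was 0.0149, and its fold change lay between −0.70 and −0.34 with each library left out. The acyltransferase gene mino had 216 and 195 CPM in the knockdown against 229 and 222 CPM in the control (−0.25, SE 0.0892, adjusted p = 0.215; DESeq2 adjusted p = 0.0195). Its interval ran from −0.46 to −0.04. The opposite direction was seen for papi, which had 109.7 and 99.2 CPM in the knockdown against 89.8 and 85.8 CPM in the control (0.13, SE 0.0854, interval −0.07 to 0.34, adjusted p = 0.469).

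For the other 6 members, as for papi, the interval of the fold change in the knockdown included 0. The helicase gene armi had 370 and 396 CPM in the knockdown against 374 and 371 CPM in the control (−0.08, interval −0.31 to 0.15). SoYb had 145 and 159 CPM in the knockdown against 148 and 130 CPM in the control (0.01, interval −0.25 to 0.27). BoYb had 80.7 and 77.3 CPM in the knockdown against 78.8 and 67.1 CPM in the control (interval −0.25 to 0.25). These paralogs of Yb, like armi, showed no separation of the groups in CPM. Gasz had 96.6 and 79.1 CPM in the knockdown against 92.1 and 70.8 CPM in the control (−0.01, interval −0.35 to 0.33). The nuclease gene zuc had 24.3 and 19.3 CPM in the knockdown against 23.0 and 22.1 CPM in the control (−0.16, interval −0.60 to 0.27). For these genes the libraries overlapped in CPM, though after TMM scaling those of armi lay lower in the knockdown, and a change of 2-fold lies outside each interval. The sign of armi, Gasz, SoYb and BoYb turned under at least 1 other setting. For fs(1)Yb, with 4.17 and 5.20 CPM in the knockdown against 1.98 and 4.46 CPM in the control (0.43, interval −0.81 to 1.67), a 2-fold rise lies inside the interval. Its value was −0.05 without RnpS1 control replicate 1.

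In CPM, 1 member stood higher without overlap (papi) and 3 lower (shu, vret and mino), beside 34.2% and 11.4% of all genes. After TMM scaling the counts were 1 and 4, beside 24.5% and 20.3%. The germline markers summed to 5374 and 5565 CPM in the knockdown against 5627 and 5919 CPM in the control, and none of 9 passed. The eggshell genes summed to 3133 and 10338 CPM in the knockdown against 7238 and 15385 CPM in the control, a level that differed more between replicates than between groups, and none of 11 passed. All 9 germline values (median −0.17) and all 11 eggshell values (median −0.94) were negative. The other lists also had no call in the knockdown, and their values were mixed in sign. The ovarian soma markers summed to 184 and 188 CPM in the knockdown against 153 and 196 CPM in the control. The muscle markers summed to 256 and 874 CPM in the knockdown against 107 and 830 CPM in the control, and those of fat body and haemocytes to 135 and 137 CPM in the knockdown against 90.4 and 178 CPM in the control. The part of these differences in the members' values was not tested.

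**Figure D3:**
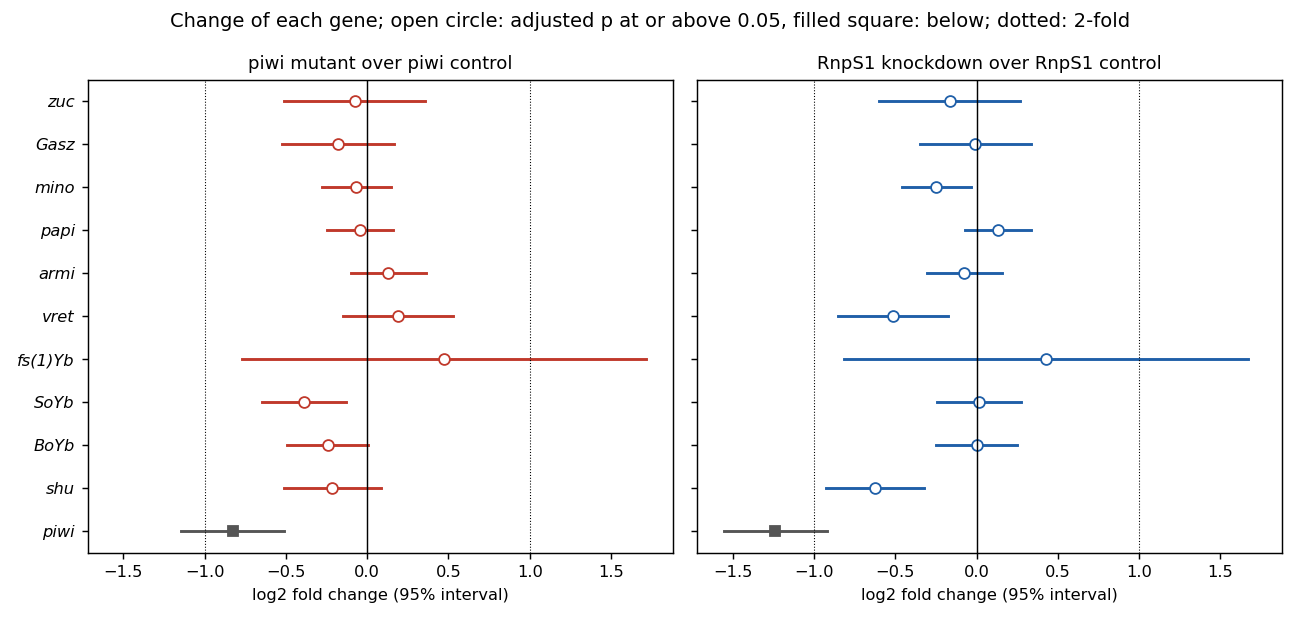
Log2 fold change of each gene with its 95% interval, for the piwi mutant over its control on the left and the RnpS1 knockdown over its control on the right, with piwi itself in the lowest line. Open circles mark an adjusted p at or above 0.05 and filled squares one below it. All 10 members are open, the intervals of all but fs(1)Yb lie between the dotted lines at a 2-fold change, and piwi is filled in both comparisons.

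The changes in the knockdown and in the mutant were compared directly as a difference of log2 fold changes, RnpS1 knockdown minus piwi mutant. No member passed, against 0.652% of all genes. There were 2 of 10 at an unadjusted p under 0.05 (15.3% of all genes), vret and SoYb, and DESeq2 called 1 of 10 (7.56% of all genes). For vret the difference was −0.70 (SE 0.202, interval −1.18 to −0.22, adjusted p = 0.185; DESeq2 adjusted p = 0.0204). In CPM its knockdown libraries were both below, and its mutant libraries both above, those of their own controls. For SoYb the difference was 0.40 (SE 0.155, interval 0.04 to 0.77, adjusted p = 0.280), and for shu −0.41 (SE 0.179, interval −0.83 to 0.01, adjusted p = 0.341). The interval lay within 2-fold for 8 of 10 members, beside 48.5% of all genes.

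The control genotypes were also set against each other. Between the RnpS1 control and the piwi control no member passed, against 3.85% of all genes. There were 3 of 10 at an unadjusted p under 0.05 (21.4% of all genes), and DESeq2 called 2 of 10 (14.0% of all genes). The 3 were shu (0.40, SE 0.127, adjusted p = 0.137), papi (0.29, SE 0.0857, adjusted p = 0.111) and BoYb (−0.36, SE 0.106, adjusted p = 0.113), and DESeq2 called papi (adjusted p = 0.0169) and BoYb (adjusted p = 0.0229). This contrast shares its libraries with the other contrasts, so the values stand side by side and are not independent. In CPM, 5 members stood higher in the RnpS1 control without overlap (armi, vret, mino, shu and papi) and 1 lower (BoYb), beside 25.5% and 22.7% of all genes. After TMM scaling the counts were again 5 and 1, beside 24.2% and 24.2%. The interval lay within 2-fold for 9 of 10 members, beside 55.0% of all genes.

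Over all 8 libraries the steadiest gene was mino, whose log2(CPM + 0.5) ranged over 0.26, a range wider than that of 2.54% of tested genes. For armi the range was 0.38, for zuc and Gasz 0.45 each, and for SoYb and BoYb 0.51 and 0.54. For papi, vret and shu it was 0.66, 0.68 and 0.70. The range of fs(1)Yb, 1.36, was wider than that of 71.5% of tested genes. Members did not rise and fall as a block. Across the 8 libraries, Pearson's r between members ran from −0.72 for mino with SoYb to 0.88 for mino with vret. These values are descriptions over libraries that share their group and scaling. The sum over all 10 members was 1193 and 1198 CPM in the piwi mutant against 1066 and 1147 CPM in its control, and 1198 and 1180 CPM in the RnpS1 knockdown against 1245 and 1178 CPM in its control. These sums are not TMM-scaled, and with library totals alone the median of all genes was 0.17 in the piwi comparison. They also weigh most on armi, with means of 403 CPM in the mutant and 329 CPM in its control. The sums therefore do not show a rise of the set in the mutant.

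**Figure D4:**
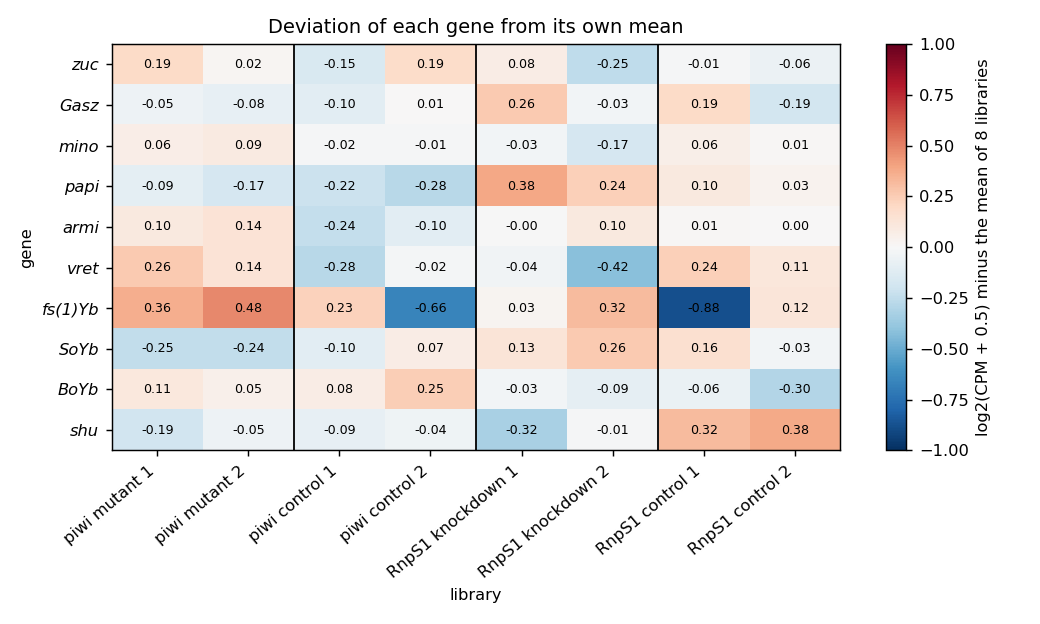
Log2(CPM + 0.5) of each gene minus its own mean over the 8 libraries, genes down the page and libraries across, with the value in each cell and colour from blue (lower) to red (higher). The widest row is fs(1)Yb, with a range of 1.36, and mino the narrowest, with a range of 0.26. The cells of shu are highest in both RnpS1 control libraries.

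The genes whose pattern was most like that of 3 members, by Pearson's r of log2(CPM + 0.5) over the 8 libraries, were ppk29 (0.97), Nrk (0.96) and CG2898 (0.95) for fs(1)Yb. For SoYb they were flfl (0.98), CG1233 (0.98) and CG14435 (0.97). For shu they were Fs(2)Ket (0.96), Cph (0.96) and Nup214 (0.94). These are the highest values among all tested genes, over few libraries, and are given as a description.

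The gene models differ widely, as annotated in the later release BDGP6. Of the 10 genes, 3 lie on 2L, 2 on 2R, 2 on 3L, 2 on 3R and 1 on X. The models of zuc and BoYb have no intron. The longest intron of the longest transcript is 3237 bases in mino, 944 in papi, 754 in SoYb and 433 in armi, and 63 to 75 in Gasz, vret, fs(1)Yb and shu. Over all annotated transcripts the longest intron is 2291 bases in papi and 450 in armi, and unchanged in the other genes. In the knockdown the lowest values were those of shu, with 2 introns of at most 75 bases, vret, with 5 of at most 65 bases, and mino, with the longest intron of the set. SoYb, papi and armi, which also have longer introns, stood at 0.01, 0.13 and −0.08. Of the genes without an intron, zuc stood at −0.16 and BoYb at 0.00, and of those with short introns, Gasz stood at −0.01 and fs(1)Yb at 0.43. Reads within a gene were summed, so these values say nothing of how each intron was spliced. Almost all of the armi exons, 4145 of 4162 bases, are also annotated in BDGP6 to CG46463 on the same strand, a gene without a row in the count tables, so counts of armi could include it. SoYb shares 247 bases on the same strand with CG31875. On the opposite strand, 1666 exon bases of mino overlap other genes, among them NSD, and the libraries are strand-specific per the labels.

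Among other genes of primary biogenesis, loading and maturation, 9 were listed and 7 had a row in the tables. Over all tested genes, 11.4% passed in the mutant and 1.62% in the knockdown, in either direction, and the median was 0.01 in both. In the mutant 2 of 7 fell, piwi (−0.83, SE 0.133, adjusted p = 0.0185) and the J-domain chaperone gene Droj2 (−0.42, SE 0.102, adjusted p = 0.0455), with a median of −0.42. Since piwi is itself the gene mutated there, its fall is not a separate result about this list. Droj2 lost its call with any 1 of the 8 libraries left out, at adjusted p-values from 0.0504 to 0.277, and piwi without any 1 of the 4 libraries of its comparison (up to 0.112). The mitochondrial partner daed had 62.6 and 57.0 CPM in the mutant against 47.4 and 52.3 CPM in the control (0.10, adjusted p = 0.624). The trimming nuclease gene Nbr stood at −0.20 (adjusted p = 0.359) and the 3′-end methyltransferase gene Hen1 at −0.32 (adjusted p = 0.321). In the RnpS1 knockdown 1 of 7 fell, piwi, with a median of −0.08, and daed, Nbr and Hen1 stood at −0.08, −0.07 and −0.45 (adjusted p = 0.798, 0.851 and 0.299).

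Of 10 ping-pong and nuage genes with a row, 1 fell in the mutant, where 11.4% of all genes passed. It was tapas (−0.63, SE 0.102, adjusted p = 0.0191), and the median was −0.18, beside 0.01 over all genes. In the knockdown none passed, beside 1.62% of all genes, and the median was −0.24, beside 0.01 over all genes. Of 10 nuclear silencing genes, mael (−0.46, SE 0.0792, adjusted p = 0.0207) and egg (−0.41, SE 0.0966, adjusted p = 0.0414) fell in the mutant, the list having a median of −0.24, and 0 passed in the knockdown, with a median of −0.01. In the difference of the changes mael passed (0.80, SE 0.112, adjusted p = 0.0380), with 129 and 125 CPM in the knockdown against 92.5 and 93.6 CPM in its control, and 81.8 and 87.0 CPM in the mutant against 105 and 103 CPM in its control. That call was lost with any 1 library left out (adjusted p from 0.0806 to 0.220). Between the controls, nxf2 was lower in the RnpS1 control (−0.66, SE 0.0981, adjusted p = 0.0218). That call was lost with any library left out except those of the knockdown. By DESeq2, 8 of the 27 tested genes of these 3 pathway lists were called in the mutant, beside 23.7% of all genes, and 6 of 27 in the knockdown, beside 9.59%. With library totals alone the calls in the mutant were lost for mael (adjusted p = 0.0573), egg (0.154) and Droj2 (0.149). In the mutant, tapas, mael and egg lost their calls without any 1 of the 4 libraries of that comparison, which leaves 1 library in a group. The call of egg was also lost without either RnpS1 control library. With single libraries left out, the fold changes ran from −0.66 to −0.58 for tapas, −0.51 to −0.40 for mael and −0.48 to −0.31 for egg.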

How the data were processed

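For each of the 8 libraries the authors deposited raw read counts per gene, 1 file per library, neither normalized nor pooled. Ribosomal RNA was removed and libraries were strand-specific, per the labels' protocols. The tools named by the submitters' processing notes are TopHat2 2.0.9 and HTSeq 0.5.3p9, beside CASAVA (1.8 and 1.8.2) and DESeq, and the builds are dm3 and BDGP5. Aligner and counter settings were not found there. Rows that name no gene stayed out of library sizes and tests. Unassigned reads were 1.91% to 10.7% and ambiguous reads 1.19% to 1.63% of gene counts plus both kinds. Adding multiply aligned reads to that sum, their share was 43.2% to 66.0%. Symbols came from a table that matched 15002 of 15682 identifiers, and gene lengths and introns from BDGP6, so no coordinates are given. Of the lists, nos, squ, Hsc70-4, vas, br and wupA had no row under a matching identifier and were not analysed here.

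Counts were fitted with edgeR 4.0.16 (R 4.3.3; filterByExpr, TMM, quasi-likelihood) with a term per group, 4 residual degrees of freedom and a prior of 3.03. The contrasts were the mutant against its control, the knockdown against its control, their difference and the controls. Intervals use the SE derived from the F statistic. The test was tried on simulated data. With 2 libraries against 2, a design cannot give an exact two-sided permutation p below 0.333, so no such test was used. Replicates differed by more than sampling noise (chi-square per degree of freedom 62.7 to 351). The text names all 10 members, list genes that passed (at most 4 per list), with daed, Nbr, Hen1, RnpS1 and tj added after their values were seen, and the 3 genes most alike in pattern to fs(1)Yb and to the member with the lowest adjusted p in each main comparison. Members and lists were chosen with earlier results of these data known. Alternatives were RLE factors, library totals, DESeq2 1.42.0, no filter, fits of single comparisons, a replicate block and leaving out each library. Intervals of counts cover counting error only.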

Additional observations from a re-analysis of the deposited data

Results flagged for a closer look

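The changes of mael, a gene of nuclear piRNA-guided silencing outside the 10 biogenesis genes, differed between the knockdown and the mutant by 0.80 (log2, SE 0.112, adjusted p = 0.0380 by edgeR's quasi-likelihood test). It stood at 0.34 (adjusted p = 0.0896) in the RnpS1 knockdown and at −0.46 (adjusted p = 0.0207) in the piwi mutant. The adjusted p of the difference lay between 0.0806 and 0.220 with single libraries left out, so the call rests on all 8. None of the 10 biogenesis genes passed the test of this difference.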

How the results depend on the processing

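No member passed in the main fit of any comparison, and this count of 0 held with RLE factors, library totals alone, the replicate block and fits of single comparisons. For the difference the fit of its groups is the fit of all 8 libraries. DESeq2 called 1 member in the piwi mutant, 3 in the knockdown, 1 in the difference and 2 between the controls. With no filter 1 member passed in the knockdown, and with single libraries left out 0 to 1. The cause was not tested.

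Counts over all genes moved more. In the piwi comparison 1193 genes passed, against 659 with the replicate block, 2478 in DESeq2 and 27 to 1138 with a library left out. In the knockdown 169 passed, against 254 with no filter, 64 with the block, 1001 in DESeq2, 5 in the fit of its groups alone and 0 to 139 with a library left out. In the difference 68 passed, against 120 with no filter, 789 in DESeq2 and 12 to 41 with a library left out. Between the controls 402 passed, against 211 with the block, 1456 in DESeq2, 135 in their own fit and 44 to 355 with a library left out. The count of 27 was without piwi control replicate 2 and that of 0 without RnpS1 control replicate 1.

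Of the pathway list genes, 5 passed in the piwi mutant, against 2 with library totals, 3 with no filter, 3 with the block, 8 in DESeq2 and 0 to 4 with a library left out. In the knockdown 1 passed, against 4 with library totals, 2 with no filter, 6 in DESeq2, 0 in the fit of its groups and 0 to 1 with a library left out. In the difference 1 passed, against 0 with the block, 4 in DESeq2 and 0 with any library left out. Between the controls 1 passed, against 3 in DESeq2 and 0 in their own fit, and leaving out a library of either control also ended that call. All these counts are of 27 tested genes. Over all tested genes the shares that passed were 11.4% in the mutant, 1.62% in the knockdown, 0.652% in the difference and 3.85% between the controls. In DESeq2 those shares were 23.7%, 9.59%, 7.56% and 14.0%. The 5 genes in the mutant include piwi, the mutated gene.

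Some signs turned. With library totals alone zuc, mino and papi were 0.081, 0.092 and 0.12 in the piwi mutant, and armi, Gasz and BoYb 0.039, 0.11 and 0.12 in the knockdown. SoYb was −0.011 there with no filter, and BoYb 0.0012 with the block and 0.0018 in the fit of its groups. fs(1)Yb was 0.0066 in the difference with the block. With a library left out, zuc ran from −0.22 to 0.11 and papi from −0.074 to 0.00995 in the mutant. In the knockdown Gasz ran from −0.19 to 0.18, SoYb from −0.081 to 0.098, BoYb from −0.12 to 0.11 and fs(1)Yb from −0.053 to 1.12. In the difference zuc ran from −0.26 to 0.040, Gasz from −0.029 to 0.34 and fs(1)Yb from −0.69 to 0.63. Between the controls zuc ran from −0.23 to 0.096, Gasz from −0.13 to 0.22, SoYb from −0.0085 to 0.15 and fs(1)Yb from −0.89 to 0.43.

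The labels number replicates without saying that a number pairs libraries. Deviations of same-numbered libraries correlated at −0.25 in the piwi comparison, 0.30 in the RnpS1 comparison and −0.33 between the controls. With the numbers crossed, an alternative chosen after seeing the data, 508 genes and 3 pathway genes passed in the piwi comparison and 117 and 0 between the controls, with 0 members in each. The replicate block also ended the calls of mael in the difference (adjusted p = 0.0835) and of egg (0.0696) and Droj2 (0.0755) in the mutant. Counts were lowest for fs(1)Yb, whose control libraries differed by more than counting error.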

Other observations

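Ratios of 2 members within a library do not depend on scaling between libraries. The pairs below were chosen after their values were seen and were not tested. Per length, SoYb stood at 0.912 and 0.950 times BoYb in the piwi mutant against 1.03 and 1.03 times in its control. In the RnpS1 knockdown it stood at 1.30 and 1.49 times BoYb against 1.36 and 1.41 times in its control. SoYb was below BoYb in both mutant libraries and above it in the other libraries.

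The ratio of shu to papi per length was 0.986 and 1.36 in the RnpS1 knockdown against 1.88 and 2.06 in its control, and 1.51 and 1.76 in the piwi mutant against 1.77 and 1.90 in its control. The ratio of vret to armi per length was 0.406 and 0.291 in the knockdown against 0.486 and 0.450 in its control, and 0.466 and 0.415 in the piwi mutant against 0.405 and 0.440 in its control. For both pairs the knockdown libraries lay below those of their control.

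The ratio of SoYb to fs(1)Yb per length varied with single libraries. It was 24.9 and 21.8 in the knockdown against 53.3 and 20.8 in its control, and 14.8 and 13.6 in the piwi mutant against 18.1 and 41.6 in its control.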
